A study of Macaca nemestrina with 15 samples.

Results

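The genes described here are the Janus kinases JAK1, JAK2, JAK3 and TYK2, the transcription factors STAT3, STAT4, STAT5A, STAT5B and STAT6, and the feedback inhibitor SOCS3. They were chosen by gene name, and each of the 10 names matched 1 of the 28865 features of the count table. All 10 had enough reads to be tested, among 12880 features that passed the filter on low counts. RNA-seq was run on peripheral blood mononuclear cells (PBMCs) of 5 female pig-tailed macaques (Macaca nemestrina), whose ages were not given in the labels. Each animal gave 3 libraries, 15 in all: 1 before treatment (pre-treatment), 1 labelled week12 and 1 labelled week18. All 5 animals received islatravir (ISL), a nucleoside reverse transcriptase translocation inhibitor, by mouth through a gavage tube at 30 mg/kg once a week for 12 weeks, and the week18 sample was described as taken 6 weeks, and in one place 4 weeks, after the last dose. No untreated animals were sequenced, so drug and passage of time cannot be told apart, and the dates within library names, whose meaning is not stated, lie about 8 and 12 weeks after that of the pre-treatment library for week12 and week18.

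Cytokines such as the interleukins and interferons bind receptors that have no kinase activity of their own. The receptor chains carry Janus kinases, which phosphorylate the receptor and then STAT proteins, and the STATs pair, enter the nucleus and switch on target genes. SOCS3 is itself a STAT3 target gene, and its protein binds receptors that use the gp130 chain and blocks the attached kinases, which closes a feedback loop. In blood, JAK3 works with the common gamma chain receptors of lymphocytes, STAT5A and STAT5B carry interleukin-2 and interleukin-7 signals, STAT4 serves interleukin-12 signals in T and NK cells, STAT6 serves interleukin-4 signals, and SOCS3 transcripts are short-lived and are induced in monocytes and in stimulated lymphocytes.

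Read counts assigned to genes ranged from 5610597 to 10379572 per library, and animal Z15303 had the lowest total at week12 (5610597) and at week18 (5886482). Levels are given as CPM, the count of a gene relative to the total of its library, scaled between libraries by edgeR's trimmed mean of M-values. Markers of PBMCs were present in every library: the top T cell marker LCK was at 959 to 1717 CPM, the top monocyte marker LYZ at 445 to 1852 CPM, and the top B cell marker CD79A at 50.6 to 395 CPM. Of the B cell markers, 0 of the 9 tested passed an adjusted p of 0.05, but all 9 had a negative log2 fold change in the fit with the animal as a block, with a median of -0.99 at week12 and -0.98 at week18, and the range of their summed level was 257 to 1075 CPM before treatment, 146 to 544 CPM at week12 and 188 to 450.4 CPM at week18. In bulk samples, fewer cells of a type and less RNA per cell cannot be told apart, which holds for every gene below.

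None of the 10 genes passed an adjusted p of 0.05 (edgeR quasi-likelihood test with Benjamini-Hochberg adjustment over all 12880 features) at week12, at week18 or between week12 and week18. The background was 0% of features called in each of the 3 comparisons. Libraries of 1 animal resembled each other. When the animal entered the fit as a block, the background was 0.00776% at week12, 0.00776% at week18 and 0% between the later time points, again with none of the 10 genes called. DESeq2, with and without the block, and limma-voom also called 0 of the 10. At an unadjusted p under 0.05, SOCS3 was the 1 gene of the 10 in the week12 comparison, where 1.61% of all features reached that level, and 0 of 10 reached it at week18 (background 1.69%) or between week12 and week18 (background 0.505%). With the block, SOCS3 was again the 1 gene of 10 at week12 (background 4.69%) and at week18 (background 5.85%), and 0 of 10 reached it between the later time points (background 2.17%).

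The 5 pre-treatment values of each gene overlapped the 5 values of each later time point in all 3 comparisons. Groups did not overlap for 0.28% of all features at week12, 0.334% at week18 and 0.101% between the later time points. The median log2 fold change of the 10 genes was -0.05 at week12, with 6 of 10 negative, and -0.11 at week18, with 8 of 10 negative, where the median over all features was 0.00 at both. The plot of CPM by animal shows that lines of different animals often ran in opposite directions.

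**Figure D1:**
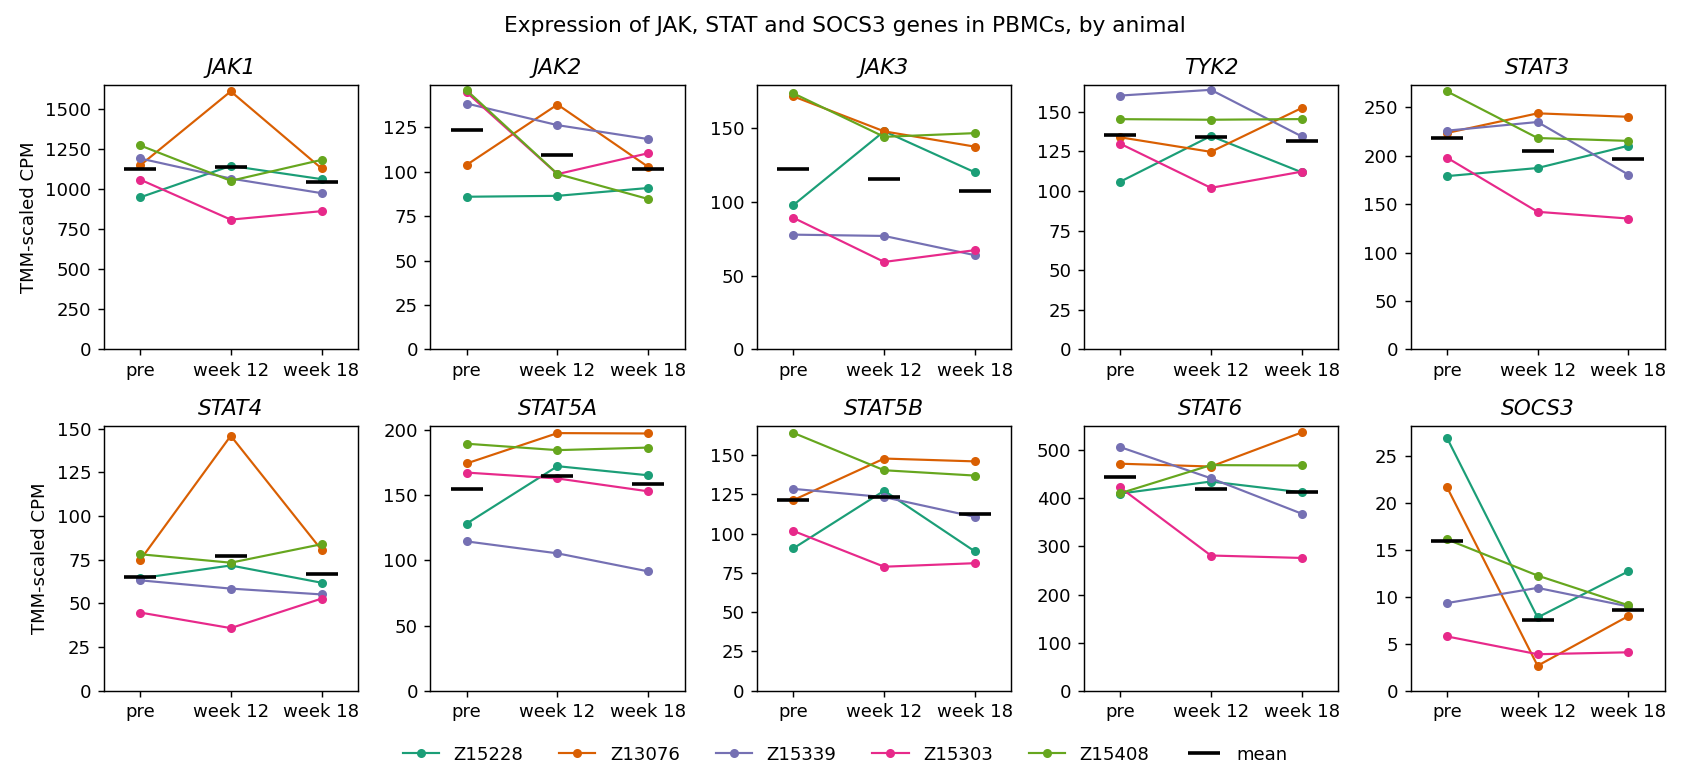
CPM of each of the 10 genes (vertical axis, from 0, its own scale in each panel) at the 3 time points (horizontal axis), with 1 coloured line per animal and a black bar for the mean of 5 animals. The pre-treatment, week12 and week18 points overlap in every panel, SOCS3 had 2 high pre-treatment values (26.9 and 21.7 CPM), and STAT4 had 1 high week12 value (146 CPM).

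Among the kinases, JAK1 pairs with almost every class of cytokine receptor. In the order Z15228, Z13076, Z15339, Z15303 and Z15408, which is kept throughout, JAK1 was at 948, 1147, 1190.4, 1059 and 1272 CPM before treatment. At week12 it was at 1144, 1609, 1065, 809 and 1051 CPM, and at week18 at 1061, 1128, 974, 862 and 1182 CPM. The week12 values spread more widely than the others, with Z13076 above and Z15303 below all 5 pre-treatment values. The log2 fold change was 0.02 ± 0.16 at week12, or -0.01 ± 0.13 with the animal as a block, and -0.11 ± 0.16 at week18.

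JAK2 serves the receptors of interferon gamma, of growth factors such as GM-CSF and of the interleukin-12 family. Its CPM was 86.0, 104, 138, 145 and 146 before treatment, and 86.5, 138, 126, 98.7 and 98.8 at week12. At week18 it was 90.9, 103, 118, 110.5 and 84.7 CPM. The highest 3 pre-treatment values came from Z15339, Z15303 and Z15408, and those animals were lower at both later time points, while Z15228 stayed between 86.0 and 90.9 CPM. The log2 fold change was -0.17 ± 0.17 (SE) at week12 and -0.29 ± 0.17 at week18, and with the animal as a block -0.28 ± 0.13 at week18 (adjusted p = 0.843, edgeR quasi-likelihood test). JAK2 was lower at week18 in 4 of 5 animals, by 0.02 to 0.78 on the log2 scale. In a fit of only the 3 animals whose library names share dates (Z15339, Z15303 and Z15408) its log2 fold change was -0.39 at week12 and -0.44 at week18 (edgeR adjusted p = 0.954 and 0.944), and in the other 2 animals it was 0.24 and 0.02.

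JAK3, the kinase of the common gamma chain, differed more between animals than between time points. It was at 97.8, 171, 77.7, 89.1 and 173 CPM before treatment, at 148, 148, 76.8, 59.2 and 144 CPM at week12 and at 119.9, 137, 63.8, 67.2 and 146 CPM at week18. Z15339 and Z15303 were the 2 lowest at every time point. The log2 fold change with the block was -0.10 ± 0.13 at week12 and -0.20 ± 0.13 at week18, and JAK3 was lower in 4 of 5 animals at each, Z15228 being the exception. TYK2, the partner kinase of type I interferon and interleukin-12 family receptors, stayed within 102 to 164 CPM in all 15 libraries, and its log2 fold change was -0.01 ± 0.14 at week12 and -0.04 ± 0.14 at week18.

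STAT3, the main STAT of the interleukin-6 family, was at 179, 223, 226, 198 and 267 CPM before treatment. It was at 187, 244, 235, 142 and 218 CPM at week12 and at 210.3, 240.2, 180.5, 135 and 215 CPM at week18. Z15303 held the lowest value at both later time points, below all 5 pre-treatment values, and Z15228 was higher than before treatment at both. The log2 fold change was -0.09 ± 0.17 at week12 and -0.15 ± 0.17 at week18.

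STAT4 had the widest change in a single animal among these 5 STAT genes. It was at 64.3, 74.6, 63.1, 44.7 and 78.1 CPM before treatment, at 71.6, 146, 58.4, 35.8 and 73.2 CPM at week12, and at 61.8, 80.5, 55.1, 52.7 and 83.8 CPM at week18. The 146 CPM belonged to Z13076, whose value was 0.96 higher at week12 on the log2 scale, whereas the other 4 animals moved between -0.32 and 0.16. The log2 fold change at week12 was 0.25 ± 0.28, and 0.15 ± 0.16 with the block. Without Z13076 these values were -0.06 and -0.08. In Z13076 the summed monocyte markers went from 4644 to 3000.4 to 5874 CPM over the 3 time points and the immediate early genes from 5252 to 3943 to 5614 CPM. Platelet markers went from 3331 to 7778 to 4068 CPM and neutrophil markers from 223 to 135 to 414 CPM, and other marker lists also moved. The part of any of these in the STAT4 value was not tested.

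STAT5A and STAT5B are close paralogs, so reads from stretches they share may have been lost or assigned to the wrong gene. The value of each is uncertain to that extent. STAT5A was at 128, 174, 115, 167 and 189.6 CPM before treatment, at 172, 198, 105, 163 and 185 CPM at week12 and at 165, 197, 91.6, 153 and 187 CPM at week18. Z15339 was lowest at all 3 time points. STAT5B was between 90.7 and 164 CPM before treatment, between 79.0 and 148 CPM at week12 and between 81.2 and 146 CPM at week18. With the block, the log2 fold changes of STAT5A were 0.08 ± 0.11 and 0.01 ± 0.11, and those of STAT5B were 0.03 ± 0.12 and -0.12 ± 0.12, at week12 and week18.

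The ratio of STAT5A counts to STAT5B counts differed more between animals than between time points. It was 0.827 to 0.891 in the 3 libraries of Z15339, 1.15 to 1.36 in Z15408, 1.34 to 1.44 in Z13076, 1.35 to 1.86 in Z15228 and 1.65 to 2.06 in Z15303. Of the spread of the log2 ratio over 15 libraries, 90.1% lay between animals and 1.80% between time points. Z15339 did not overlap any other animal. The ranges of Z15408, Z13076 and Z15228 overlapped each other, and that of Z15303 overlapped that of Z15228.

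**Figure D2:**
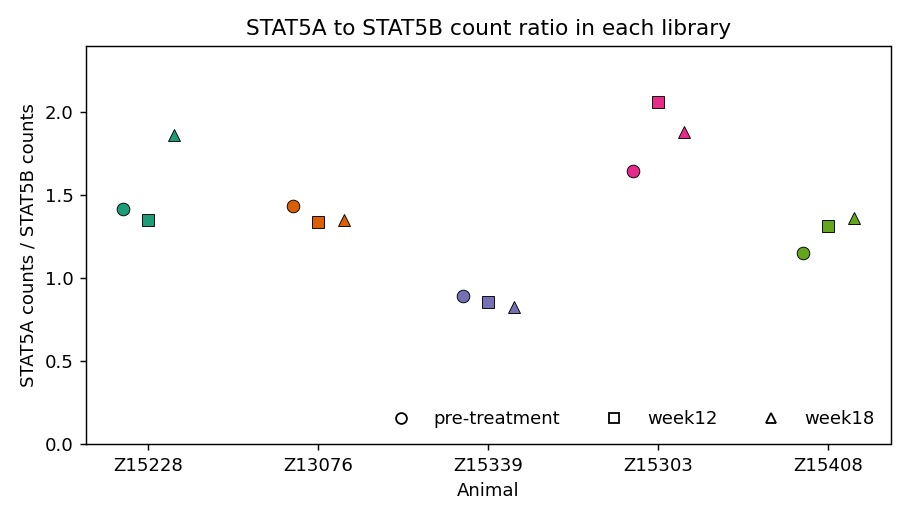
Ratio of STAT5A to STAT5B read counts (vertical axis, from 0) in each library, by animal (horizontal axis), with a circle for pre-treatment, a square for week12 and a triangle for week18. All 3 libraries of Z15339, at 0.827 to 0.891, lie below the other 12.

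STAT6, the interleukin-4 STAT, was at 410.0, 472, 507, 423 and 411 CPM before treatment. It was at 435, 466, 442, 281 and 469 CPM at week12 and at 413, 537, 368, 276 and 468 CPM at week18. Z15303 was the lowest at both later time points, 0.59 and 0.61 lower on the log2 scale than in its pre-treatment library, while Z15408 was 0.19 higher at both. The log2 fold change was -0.09 ± 0.17 at week12 and -0.11 ± 0.17 at week18.

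Over the 9 kinase and STAT genes, the 95% confidence intervals of the log2 fold change with the block reached from -0.45 to 0.48 at week12 and from -0.56 to 0.37 at week18. The farthest of these bounds is a 1.40-fold change at week12 and a 1.47-fold change at week18. None of the 9 moved the same way in all 5 animals in any comparison, where 5.68% of features did so at week12, 6.53% at week18 and 5.86% between the later time points.

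SOCS3 had the largest fold changes of the 10 genes against pre-treatment. Before treatment it was at 26.9, 21.7, 9.31, 5.77 and 16.1 CPM, from 262, 192, 78, 52 and 141 reads. At week12 it was at 7.79, 2.65, 10.9, 3.87 and 12.2 CPM, from 75, 22, 99, 21 and 122 reads. At week18 it was at 12.7, 7.93, 8.96, 4.08 and 9.08 CPM, from 98, 65, 80, 23 and 82 reads. Z15228 and Z13076 started highest and were far lower at week12, Z15339 was slightly higher at week12, and at week18 all 5 animals were below their own pre-treatment value. The groups overlapped at both time points. The mean was 16.0 ± 8.67 CPM (SD, n = 5) before treatment, 7.50 ± 4.21 at week12 and 8.55 ± 3.08 at week18.

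At week12 the log2 fold change of SOCS3 was -1.07 ± 0.44 (SE), with an adjusted p of 1.00 in the edgeR quasi-likelihood test and an unadjusted p of 0.0268. In the fit with the block it was -1.06 ± 0.31 (adjusted p = 0.559, unadjusted p = 0.00316), and its p ranked 71 among the 12880 features. SOCS3 was lower in 4 of 5 animals, with log2 changes of -1.76, -2.92, 0.23, -0.55 and -0.39. At week18 the log2 fold change was -0.89 ± 0.44 (edgeR adjusted p = 1.00) and with the block -0.87 ± 0.30 (adjusted p = 0.625, unadjusted p = 0.00978). Log2 changes at week18 were -1.07, -1.42, -0.05, -0.48 and -0.81, lower in 5 of 5 animals, where 3.49% of all features were lower in 5 of 5. Between week12 and week18 SOCS3 had a log2 fold change of 0.18 ± 0.45 and was higher in 3 of 5 animals.

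The week12 value of SOCS3 rested on Z15228 and Z13076, whose library names carry dates of their own. In these 2 animals alone its log2 fold change was -2.20 at week12 and -1.24 at week18 (edgeR adjusted p = 0.994 and 1.00), and in the 3 animals that share dates it was -0.17 and -0.46 (edgeR adjusted p = 0.994 and 0.949). Without Z13076 the week12 value was -0.72, and without Z15228 it was -0.80. The difference between the 2 sets of animals was not tested. In Z13076, the week12 library with 22 SOCS3 reads also had the lower monocyte and immediate early sums given above. At week18 that animal's monocyte sum was 5874 CPM and its immediate early sum 5614 CPM, against 4644 and 5252 CPM before treatment. Its SOCS3 level was then 7.93 CPM, against 21.7 CPM before treatment. In Z15228 the monocyte sum went from 3701 to 3163 to 4908 CPM and the immediate early sum from 5589 to 5184 to 5306 CPM. SOCS3 went from 26.9 to 7.79 to 12.7 CPM in that animal. The part of these markers in the SOCS3 value was not tested.

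**Figure D3:**
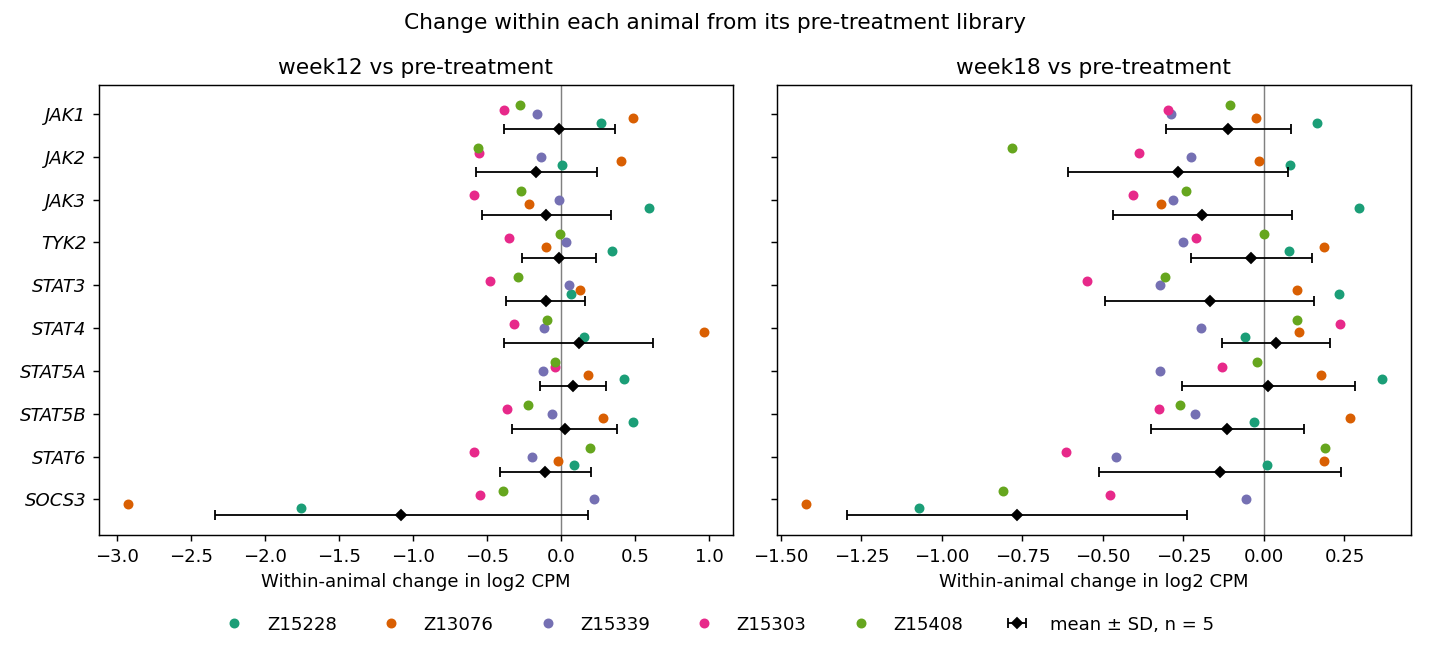
Change in log2 CPM of each of the 10 genes from the pre-treatment library of the same animal (horizontal axis, its own scale in each panel) at week12 and week18, with 1 coloured point per animal and a black diamond with bars for the mean ± SD of 5 animals. SOCS3 points reach -2.92 at week12 and -1.42 at week18, and the points of every other gene lie on both sides of 0 in both panels.

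The animals differed in the sign of their changes over the 10 genes. At week12, the number of the 10 genes lower than before treatment was 1 in Z15228, 4 in Z13076, 7 in Z15339, 10 in Z15303 and 9 in Z15408. At week18 it was 3, 4, 10, 9 and 7. Over all tested features, between 48.1% and 53.0% were lower in each animal at either time point. The median change of the 10 genes in Z15303 was -0.43 at week12, and this is the library with the lowest total count.

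Over the 15 libraries, more of the spread of each kinase and STAT lay between animals than between time points. The share of the sum of squares of log2 CPM between animals was 88.7% for STAT5A and 87.9% for JAK3, more than for 96.7% and 96.1% of all tested features. It was 76.4% for STAT5B, 73.5% for STAT4, 66.5% for STAT3, 65.5% for TYK2, 61.6% for STAT6, 52.9% for JAK1 and 43.4% for JAK2, and the median over all features was 51.9%. SOCS3 stood at the other end: 41.8% lay between animals and 28.0% between time points, the latter more than for 94.5% of features, and its SD over libraries exceeded that of 93.8% of features. JAK2 came next with 16.2% between time points, against a median of 6.23% over all features.

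**Figure D4:**
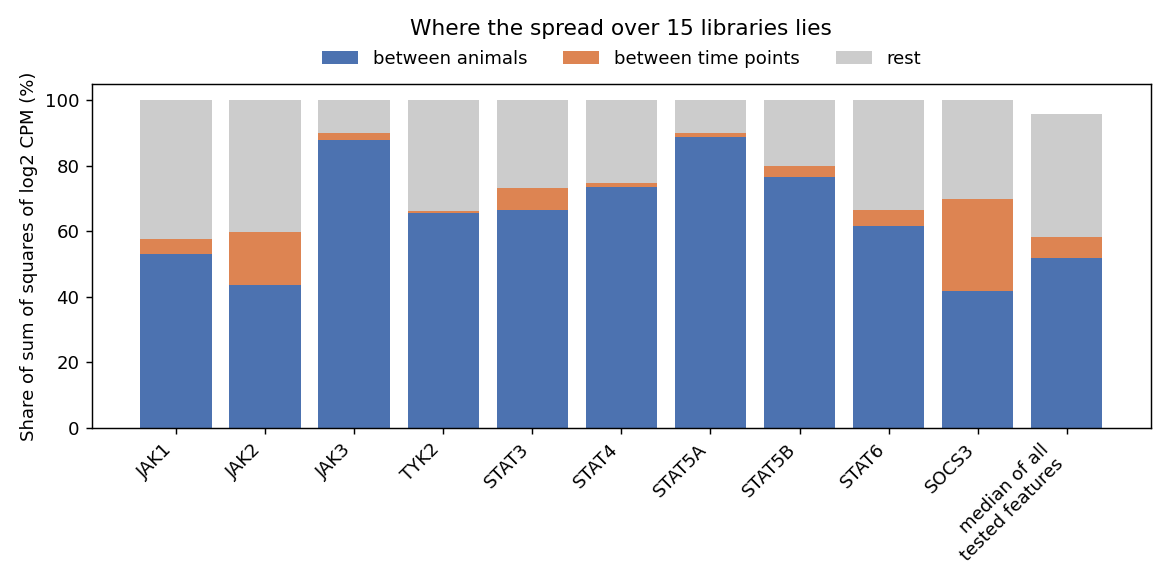
Share of the sum of squares of log2 CPM over 15 libraries (vertical axis, %) that lay between animals (blue), between time points (orange) or in the rest (grey), for each of the 10 genes and for the median over all tested features, whose 3 shares are separate medians and do not add up to the full height. STAT5A and JAK3 have the tallest blue parts (88.7% and 87.9%) and SOCS3 the tallest orange part (28.0%).

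Of the other genes of the pathway, 95 were listed by role, 89 were in the table and 75 were tested, and none passed an adjusted p of 0.05 in either edgeR fit at week12, week18 or between them. Among the 24 tested receptor chains, 0 had an unadjusted p under 0.05 with the block at week12 (background 4.69%) and 2 did at week18 (background 5.85%), 1 in each direction. CSF2RA, the alpha chain of the GM-CSF receptor, had a log2 fold change of 0.52 ± 0.15 at week18 with the block (34.6 ± 12.1 CPM before treatment, 49.4 ± 17.3 at week18). At week12 the smallest p-values of this list belonged to CSF2RB, the beta chain of the same receptor family, at -0.23 ± 0.12, and IL7R, the interleukin-7 receptor, at 0.17 ± 0.11.

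Among the 9 tested ligands, 0 had an unadjusted p under 0.05 with the block at week12 (background 4.69%) or week18 (background 5.85%). IL15, which signals through JAK1 and JAK3, was lower in 5 of 5 animals at both, at -0.37 ± 0.18 and -0.34 ± 0.18 on the log2 scale with the block. Over all features, 5.68% moved the same way in all 5 animals at week12 and 6.53% at week18. EBI3, a subunit of interleukin-27, was at 1.63 ± 1.37 CPM before treatment and 0.862 ± 0.480 CPM at week12. It had only 2 to 38 reads per library, and its highest value was 3.90 CPM in Z15228 before treatment. IL10 was at 1.21 ± 0.644 CPM before treatment and 0.622 ± 0.535 CPM at week18, from 1 to 16 reads per library. EBI3 at week12 and IL10 at week18 were each lower in 4 of 5 animals and higher in Z15408. IL6, whose receptors SOCS3 restrains, had at most 7 reads in any library and was not tested.

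STAT2, which carries type I interferon signals, had a log2 fold change with the block of -0.24 ± 0.11 at week12 and -0.33 ± 0.11 at week18 (edgeR unadjusted p = 0.0066 and adjusted p = 0.584 at week18). It was lower at week18 in 5 of 5 animals, where 3.49% of all features were lower in 5 of 5.

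Of the 19 tested feedback inhibitors and phosphatases, 2 had an unadjusted p under 0.05 with the block at week12 (background 4.69%), 1 in each direction, and 1 did at week18 (background 5.85%), with a positive value. CISH, a STAT5 target and SOCS family member, had a log2 fold change with the block of 0.47 ± 0.18 at week12 and 0.48 ± 0.18 at week18, and was higher in 4 of 5 animals at both (32.1 ± 15.7 CPM before treatment, 42.7 ± 19.3 at week12 and 42.6 ± 15.2 at week18). SH2B3, an adaptor that restrains JAK2, had -0.30 ± 0.14 at week12, and PIAS1, an inhibitor of STAT proteins, had -0.22 ± 0.11 at week18. Of the other SOCS genes, SOCS1 had log2 fold changes without the block of -0.06 ± 0.32 and -0.27 ± 0.32, and SOCS2 of -0.02 ± 0.39 and -0.18 ± 0.40, at week12 and week18.

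Of the 26 tested STAT target genes, 2 had an unadjusted p under 0.05 with the block at week12 (background 4.69%), 1 in each direction. At week18 4 did (background 5.85%), 3 of them with positive values. CISH, SOCS1, SOCS2, OSM and IL2RA are on this list and also on another list above, so the counts are not separate. The positive gene at week12 was CISH, already counted among the feedback inhibitors, and CISH was again among the positive genes at week18. FCER2, the low-affinity IgE receptor of B cells and a STAT6 target, had a log2 fold change with the block of -0.44 ± 0.15 at week12 (32.9 ± 19.8 CPM before treatment, 24.9 ± 16.8 at week12). It was lower in 5 of 5 animals, where 5.68% of all features moved the same way in all 5. The B cell markers given above were lower in the same comparison, and their part in the FCER2 value was not tested. CEBPD, a transcription factor gene induced through STAT3, was higher at week18 in 5 of 5 animals, where 6.53% of all features moved the same way in all 5. It was at 155 ± 29.5 CPM before treatment and 219 ± 20.0 CPM at week18 (log2 fold change with the block 0.52 ± 0.15). SOCS3, a target of the same factor, was lower in the same 5 animals. At week18 the median log2 fold change with the block was 0.22 for monocyte and 0.41 for neutrophil markers, and their part in the CEBPD value was not tested.

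Likeness between genes was described by Pearson's r of log2 CPM after each animal's own mean was removed, over 15 libraries that share 5 animals and 3 time points. The nearest features were picked for their high r among all tested features with a symbol, so high values follow from the choice. No background r was computed. SOCS3 was most like GRINA (r = 0.92), SIGLEC9 (0.90) and RAB2A (0.89). Without removal of each animal's mean, these were 0.64, 0.11 and 0.22. Against the mean of marker lists SOCS3 had r = 0.62 with immediate early genes, 0.60 with monocytes, 0.54 with B cells, -0.59 with T cells and -0.61 with dividing cells. Without removal of each animal's mean, these were 0.15, 0.30, 0.50, -0.54 and 0.06. STAT4 had r = -0.85 with monocytes, 0.74 with dividing cells, -0.73 with immediate early genes and -0.69 with SOCS3. Without removal of each animal's mean, these were -0.03, 0.00, -0.73 and 0.01. Z13076 had the largest week12 change of the 5 animals in both genes, 0.96 for STAT4 and -2.92 for SOCS3. Its weight in these values was not tested. The genes most like STAT4 were PRKCB (0.92), RCN2 (0.90) and ASTE1 (0.88).

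Among the kinases and STATs, the within-animal r of JAK1 was 0.74 with JAK2, 0.75 with STAT4 and 0.68 with STAT5B, JAK3 had 0.71 with TYK2, and TYK2 had 0.74 with STAT6. The nearest features were GEMIN5 (0.96), USP28 and MYO6 for JAK1, HIPK3 (0.96), ACSL3 and NAA50 for JAK2, DNAJC5 (0.94), ARAP1 and PSD4 for JAK3, and AAGAB (0.95), MAP4K2 and ZNF8 for TYK2. For the STATs they were ERO1A (0.95), ADAM17 and TBC1D15 for STAT3, GCN1 (0.93), RRP12 and ZSCAN26 for STAT5A, SYMPK (0.93) and FRY for STAT5B, and CTSC (0.96), ANAPC7 and SLC10A3 for STAT6. Without removal of each animal's mean, the r of the nearest features ranged from -0.28 (ARAP1 with JAK3) to 0.97 (ANAPC7 with STAT6). STAT5A and STAT5B had r = 0.63 with each other within animals and 0.31 over all 15 libraries.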

How the data were processed

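Total RNA from PBMC lysates was made into SMART-Seq v4 and Nextera XT libraries and sequenced. The authors aligned the reads with STAR 2.7.9a to the M. nemestrina genome, Ensembl release 95, and deposited the raw counts per gene that STAR assigned; the strand setting is not given in the sources used here. The deposited table gave each feature a single name, which was a gene symbol for some features and an Ensembl or Rfam identifier for others. The 10 genes were matched by exact symbol. The study tested counts with DESeq2 and the Wald test; whether its design held an animal term is not given in the sources used here.

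Here counts of all 15 libraries were fitted with edgeR 4.0.16 (R 4.3.3) with trimmed mean of M-values scaling, a minimum count of 10 in filterByExpr, time point as the term and quasi-likelihood F tests, with Benjamini-Hochberg adjustment over 12880 features and a threshold of 0.05. Each SE was obtained from the log2 fold change and its F statistic. Log2 CPM used a prior count of 2. The subject label ties the 3 libraries of each animal together. Deviations from the time point means correlated between libraries of the same animal (mean r = 0.55, lowest 0.35, over 15 pairs). The fit with the animal as a block is therefore given beside the main values. Between animals the mean r was -0.14 over 60 pairs. Removing the time point means pushes that value below 0, so it does not measure how unlike the animals are. Biological variation was 29.3% without and 16.9% with the block. Alternatives were DESeq2 1.42.0, limma-voom 3.58.1, other scaling and filters, each animal left out, 2 time points only and animals grouped by the dates in library names, which no source defines. The scripts were tested on simulated data.

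The 10 genes and the lists of pathway and marker genes were chosen with earlier results of these data known. All 10 are named. Other pathway genes are named when called, and otherwise as the 2 with the smallest unadjusted p of each role list in the fit with the block, at week12 and at week18; SOCS1, SOCS2 and IL6 were added after their values were seen. For likeness, the 3 features with the highest r are named. A few genes that these rules name are not reported here. Each animal gave 1 library per time point. The marker lists not described with the results had these median log2 fold changes with the block at week12 and week18: T cells 0.10 and 0.08, monocytes -0.22 and 0.22, NK and cytotoxic cells 0.15 and -0.11, neutrophils -0.26 and 0.41, platelets 0.17 and 0.06, red cells -0.19 and -0.38, dividing cells 0.21 and -0.12, and immediate early genes -0.20 and 0.07. Sequences and lengths of these genes were not used here, so levels are not compared between genes; the ratio of STAT5A to STAT5B counts is compared only between libraries.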

Additional observations from a re-analysis of the deposited data

Results flagged for a closer look

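The STAT6 level of Z15303 at week12 stood apart from the other 4 animals. It was 281 CPM, against 435 to 469 CPM in the others, a gap of 0.819 of the whole range, above Dixon's 95% critical value of 0.71 for 5 samples. The same animal had the lowest STAT6 level at week18, 276 CPM, without passing that value. Of the 30 groups of 5 values tested (10 genes at 3 time points) this was 1, and chance flags about 5% of groups. The library is the one with the lowest total count, 5610597, and in it all 10 genes were lower than in the pre-treatment library of the animal, where 51.1% of all features were lower; the part of depth was not tested.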

How the results depend on the processing

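No alternative called any of the 10 genes or any other listed pathway gene. The number of features called, 0 in each comparison, was 1 at week12 and 1 at week18 with the animal as a block, 1 at week12 with DESeq2, and 27 at week12, 51 at week18 and 8 between the later time points with DESeq2 and the block. Leaving out each animal in turn gave 0 in each comparison without the block, and with the block 0 to 6 at week12, 0 to 17 at week18 and 0 to 0 between them. The block, which changed no call on the 10 genes, turned JAK1 at week12 to -0.0098 (log2 fold change, as throughout), and it was -0.0039 with DESeq2 and the block, -0.017 with limma-voom and -0.0022 without TMM. The adjusted p of SOCS3 over its 21 alternatives was 0.235 to 1.00 at week12 and 0.381 to 1.00 at week18, and its direction held in each. Leaving out each animal, with or without the block, moved SOCS3 between -1.40 and -0.65 at week12, and between -1.05 and -0.68 at week18.

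With only the 3 animals whose library names share dates, week12 values that turned were JAK1 -0.25, STAT4 -0.13, STAT5A -0.044 and STAT5B -0.18, at week18 STAT5A -0.11, and between the later time points JAK1 0.045, STAT4 0.19 and SOCS3 -0.29. With only the other 2 animals they were JAK2 0.24, JAK3 0.13, TYK2 0.11, STAT3 0.098 and STAT6 0.030 at week12. At week18 they were JAK1 0.060, JAK2 0.024, TYK2 0.13, STAT3 0.16, STAT5B 0.14 and STAT6 0.10, and between the later time points TYK2 0.022, STAT3 0.061 and STAT6 0.071. The cause was not tested.

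Leaving out each animal in turn also turned the sign of some values, and not only of values near 0. In the main fit STAT4 was 0.25 at week12 and -0.21 between the later time points. The ranges below cover fits with and without the block. JAK3 at week12 and STAT4 at week18 turned only where the block was added too. At week12 the ranges were -0.14 to 0.10 for JAK1, -0.26 to 0.027 for JAK3, -0.079 to 0.34 for STAT4, -0.087 to 0.13 for STAT5B, -0.19 to 0.021 for STAT6 and -0.094 to 0.082 for TYK2. At week18 they were -0.0051 to 0.10 for STAT4, -0.064 to 0.096 for STAT5A and -0.10 to 0.021 for TYK2. Between the later time points they were -0.20 to 0.0036 for JAK1, -0.035 to 0.40 for SOCS3, -0.12 to 0.018 for STAT3, -0.32 to 0.10 for STAT4, -0.093 to 0.036 for STAT6 and -0.11 to 0.042 for TYK2. The other 564 single-gene values kept their direction. With 5 animals and the block, the confidence interval of each kinase and STAT gene included 0 at week12 and at week18. The intervals of SOCS3, from 21 to 262 reads per library, were -1.71 to -0.41 at week12 and -1.51 to -0.24 at week18. They are not adjusted for the number of features tested, and the adjusted p was 0.559 and 0.625 (edgeR quasi-likelihood test with the block). The smallest change that could be detected was not computed.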
